A study of Mus musculus with 6 samples.

Results

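The 9 genes described here encode transcription factors that set and keep the identity of hepatocytes: Hnf4a, Foxa1, Foxa2, Foxa3, Cebpa, Onecut1, Prox1, Nr1i2 and Nr1i3. They were taken by symbol from a table of 55491 genes, and each symbol matched 1 gene. Expression was measured by RNA-seq of whole liver from 3 Chrna2fl/fl mice, called control, and 3 Chrna2fl/fl;AlbCre mice, called mutant, with the livers of each genotype lettered a, b and c. Chrna2 encodes an alpha subunit of the nicotinic acetylcholine receptor, AlbCre places the Cre recombinase under the albumin promoter and so directs the deletion to hepatocytes, and the controls carry the same floxed alleles without Cre. The deletion is not directed to other liver cells. Per the study's methods, floxed littermates served as controls for Cre mice. All 6 mice received a high-fat diet with 60% of calories from fat for 4 weeks, begun at an age of 7 to 10 weeks, and CCl4, a hepatotoxin, at 0.5 μl/g by intraperitoneal injection 2 times per week during the last 2 weeks of feeding (the third and the fourth). The sex of the mice was not given in the sources used here.

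HNF4A is a nuclear receptor that binds the promoters of a large share of hepatocyte genes and is required for the differentiated state. FOXA proteins open compacted chromatin in the early endoderm and stay bound at liver enhancers in the adult, C/EBPA drives genes of gluconeogenesis and nitrogen handling, ONECUT1 acts in the choice between hepatocyte and bile duct fate, and PROX1 is needed for hepatoblasts to migrate and also defines lymphatic endothelium. PXR, the product of Nr1i2, and CAR, the product of Nr1i3, sense drugs, bile acids and other foreign compounds and switch on detoxification genes as heterodimers with the retinoid X receptor. These factors bind each other's regulatory regions, so the promoters of the factors themselves can hold the letters that the family recognizes.

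Promoter sequence was shown for 4 factors: Foxa1 and Foxa2, whose windows held the longer FOXA or ONECUT letters searched, and Onecut1 and Nr1i3, on which the results turned. The windows are the 250 bases before a RefSeq gene start on GRCm38.p6, read in the direction of the gene. Capitals mark matches, on either strand, to the FOXA letters TGTTTAC, the ONECUT letters ATTGATTT or the E-box CACGTG, which reads the same on both strands.
Foxa1, chr12:57546112-57546361, minus strand: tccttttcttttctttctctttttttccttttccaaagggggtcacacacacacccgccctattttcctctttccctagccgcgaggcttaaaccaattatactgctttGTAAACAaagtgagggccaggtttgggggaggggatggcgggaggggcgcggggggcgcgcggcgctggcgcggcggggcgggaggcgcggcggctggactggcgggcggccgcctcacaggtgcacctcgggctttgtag
Foxa2, chr2:148046970-148047219, minus strand: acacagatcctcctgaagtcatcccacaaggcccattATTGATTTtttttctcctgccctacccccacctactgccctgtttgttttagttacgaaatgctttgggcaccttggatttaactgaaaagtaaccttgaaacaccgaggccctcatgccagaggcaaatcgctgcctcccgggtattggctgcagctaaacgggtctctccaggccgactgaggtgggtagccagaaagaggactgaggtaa
Onecut1, chr9:74861671-74861920, plus strand: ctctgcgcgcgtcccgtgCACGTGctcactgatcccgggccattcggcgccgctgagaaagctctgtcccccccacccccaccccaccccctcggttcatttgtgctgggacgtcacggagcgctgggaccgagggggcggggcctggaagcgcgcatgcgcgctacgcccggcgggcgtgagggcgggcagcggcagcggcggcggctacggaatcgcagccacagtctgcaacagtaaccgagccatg
Nr1i3, chr1:171213720-171213969, plus strand: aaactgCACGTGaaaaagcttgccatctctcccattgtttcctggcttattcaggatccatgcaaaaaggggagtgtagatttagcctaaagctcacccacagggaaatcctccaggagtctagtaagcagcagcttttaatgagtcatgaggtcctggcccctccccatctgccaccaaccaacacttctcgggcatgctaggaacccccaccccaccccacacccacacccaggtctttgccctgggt
TGTTTAC lay in the Foxa1 window at 141 to 135 bases before the start, on the opposite strand. ATTGATTT lay in the first Foxa2 window at 213 to 206 bases. CACGTG lay in the Onecut1 window at 232 to 227 bases and in the Nr1i3 window at 244 to 239 bases. Among 32841 promoter windows of the same length, 3.17% held TGTTTAC, 1.14% ATTGATTT and 6.02% CACGTG. The shorter forkhead letters TGTTTG, not in capitals, were in 5 of the 13 windows of the 9 factors, belonging to Hnf4a, Foxa2, Prox1 and Nr1i2, and in 16.0% of all windows. TATAAAA was in 4 of the 13 windows and in 4.98% of all. The C/EBP letters TTGCNNAA, found in 9.57% of all windows, the HNF4 letters CAAAGTCCA, in 0.384%, and the nuclear receptor letters AGGTCA, in 14%, were in none of the 13. The Onecut1 window was 71.6% G or C and the Nr1i3 window 53.2%, beside a median of 52.4% over all windows. A match describes these letters only.

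The genotype labels were checked first. Chrna2 was at 1.24, 1.20 and 2.64 FPKM in control livers and at 0.36, 0.03 and 0.32 FPKM in mutant livers, without overlap, FPKM being fragments per kilobase of exon scaled to the library's mapped fragments. The sequencing depth, recovered from the step size of the lowest FPKM values, was 17.2 to 18.1 M fragments in control libraries and 9.14 to 9.42 M fragments in mutant libraries. Since no control library was as shallow as any mutant library, genotype and depth cannot be told apart. Fold changes below are on the log2(FPKM + 0.1) scale, mutant minus control, and were tested with limma over the 13943 genes that averaged 0.5 FPKM or more across the 6 livers. The median log2 fold change of all those genes was 0.185 and it was 0.005 after median-ratio scaling, which sets the typical gene equal between libraries. Values are compared with that shift where a direction depends on it.

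All 9 factors were transcribed in each of the 6 livers and passed the filter on low values, and their levels spanned a wide range. FPKM is per length of exon, so the levels of different genes can be set side by side. Those of Nr1i3 and Onecut1 can also depend on how fragments from exon bases shared with another gene were assigned, as described below. In control livers the order by mean level was Cebpa at 185 FPKM, Hnf4a at 125 FPKM, Nr1i3 at 70.6 FPKM, Foxa3 at 28.5 FPKM, Foxa2 at 21.8 FPKM, Prox1 at 20.6 FPKM, Nr1i2 at 18.6 FPKM, Onecut1 at 11.8 FPKM and Foxa1 at 8.02 FPKM. The ranges of Cebpa and Hnf4a, of Hnf4a and Nr1i3, and of Nr1i3 and Foxa3 did not overlap, whereas from Foxa3 downward each gene overlapped the next. In mutant livers the order by mean was the same. There the range of Nr1i3 (28.2 to 42.0 FPKM) overlapped that of Foxa3 (18.3 to 45.3 FPKM), and Hnf4a and Nr1i3 were the only neighbours apart. By median, Onecut1 lay below Foxa1 in both genotypes. The medians were 2.8 and 6.66 FPKM in control livers and 4.77 and 7.87 FPKM in mutant livers.

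**Figure D1:**
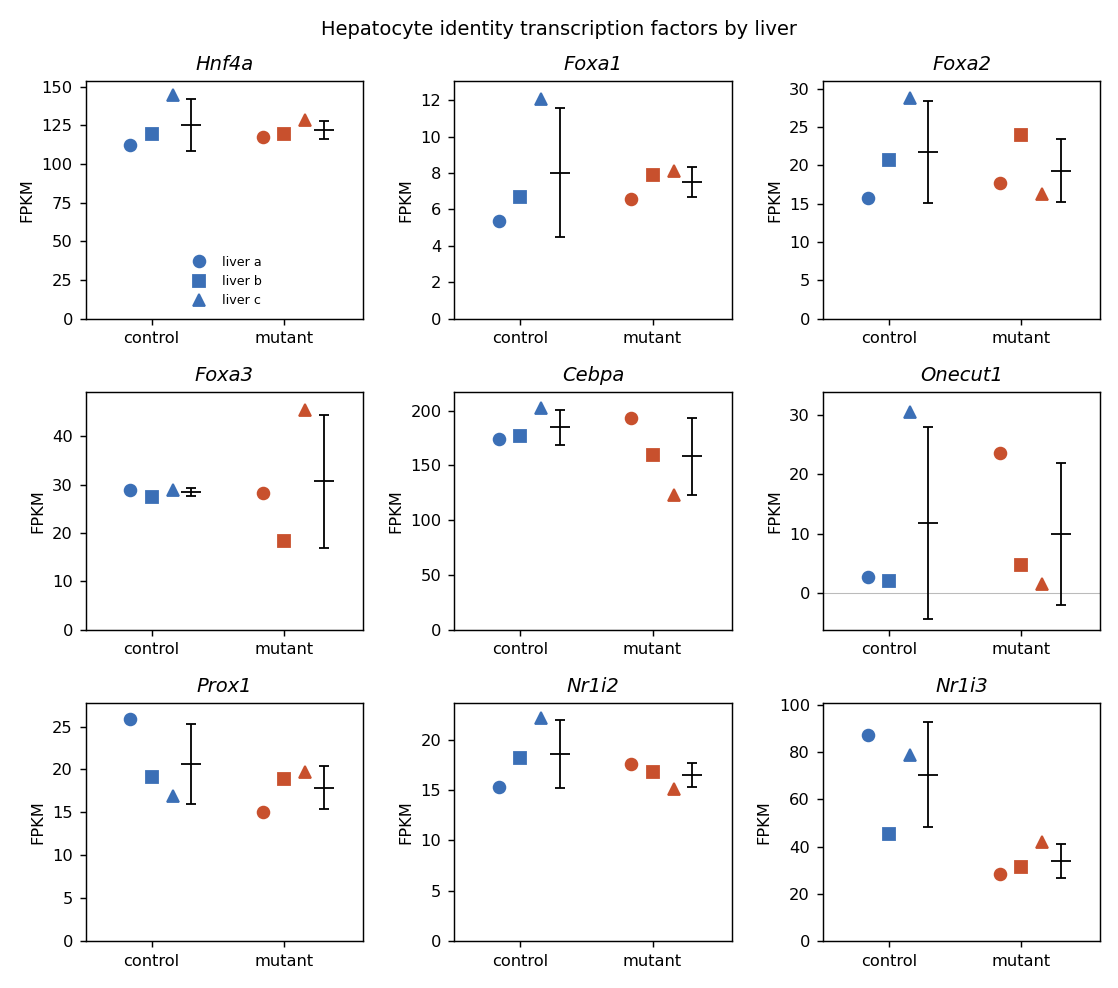
Level of each of the 9 factors in FPKM (y axis, linear) in the 3 control livers (blue) and the 3 mutant livers (red), with the liver letter as the symbol and the mean ± SD in black beside each group. Nr1i3 is the factor whose mutant livers, at 28.2 to 42.0 FPKM, all lie below the control livers, at 45.5 to 87.4 FPKM, and Onecut1 is high in control liver c and mutant liver a only.

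No factor passed an adjusted p of 0.05, and neither did any of the 13943 genes tested (0.0%). By limma, 1 of the 9 factors, Nr1i3, was lower with an unadjusted p under 0.05, and none was higher, beside 3.02% of all genes lower and 13.2% higher, together 16.2%. The livers of the genotypes did not overlap for 1 of the 9 factors, again Nr1i3, in the lower direction, beside 4.34% of all genes lower and 18.7% higher, together 23.0%. Of the 9 fold changes, 8 were below 0, beside 29.7% of all genes, and their median was -0.149. After median-ratio scaling all 9 were below 0, beside 49.4% of all genes, with a median of -0.333, and Nr1i3 was still the one factor at an unadjusted p under 0.05, beside 13.7% of all genes (7.39% lower and 6.31% higher). Without control liver c, 4 of 9 were below 0 and the median was 0.022. In whole liver, fewer cells of a type and less RNA per cell cannot be told apart.

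**Figure D2:**
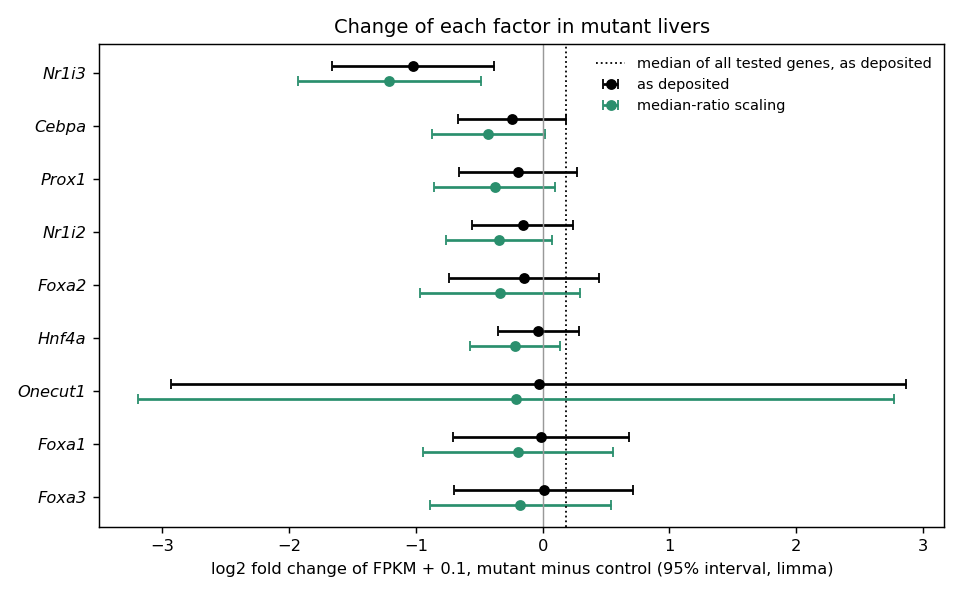
Log2 fold change of each factor, mutant minus control, with its 95% interval from limma, for the FPKM as deposited (black) and after median-ratio scaling (green). The dotted line is the median of all tested genes as deposited, 0.185, and Nr1i3 has the one interval that leaves out 0 under both scalings.

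Hnf4a (ENSMUSG00000017950, chromosome 2 of GRCm38 from 163506808 to 163572910, plus strand), the central regulator of the group, was almost level between the genotypes. Control livers, in the order a, b, c, held 112, 119 and 144 FPKM. Mutant livers, in the same order, held 118, 119 and 128 FPKM, inside the control range. The mutant mean was 97.2% of the control mean, giving a fold change of -0.03 on the log2 scale (standard error 0.14, adjusted p = 0.910 from limma) and a 95% interval of -0.353 to 0.285, which spans 78.3% to 122% of the control level. Hnf4a was also among the steadier genes, with an SD within genotypes of 0.143 on the log2 scale, at the 14.3 percentile of all tested genes. Median-ratio scaling moved its fold change to -0.219 (adjusted p = 0.551). Hnf4aos, an antisense transcript that starts within Hnf4a and runs back across its first part, stayed at 0 to 1.89 FPKM over the 6 livers.

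The 3 FOXA genes, the pioneer factors of the group, differed in how much they varied between livers, and in none did the genotypes separate. Foxa1 (ENSMUSG00000035451, chromosome 12) was the lowest at 5.36, 6.66 and 12.1 FPKM in control livers and 6.58, 7.87 and 8.12 FPKM in mutant livers. Control liver c alone stood above all 3 mutant livers. Its log2 fold change was -0.01 (standard error 0.30, adjusted p = 0.987 from limma), and without control liver c it was 0.322. Foxa2 (ENSMUSG00000037025, chromosome 2) was at 15.7, 20.7 and 28.9 FPKM in control livers and at 17.8, 24.0 and 16.2 FPKM in mutant livers, again with control liver c highest. The log2 fold change of Foxa2 was -0.15 (standard error 0.25, adjusted p = 0.769), and 0.076 without control liver c. Foxa3 (ENSMUSG00000040891, chromosome 7), which in the mouse adds to the activation of liver genes alongside the other FOXA proteins, was tight in control livers at 28.9, 27.5 and 28.9 FPKM and wide in mutant livers at 28.3, 18.3 and 45.3 FPKM. Mutant liver b lay below the narrow control range, mutant liver c above it and mutant liver a inside it. Its fold change, 0.01 on the log2 scale (standard error 0.30, adjusted p = 0.989), became -0.175 after median-ratio scaling and -0.320 without mutant liver c. The 95% intervals of the 3 genes ran from -0.742 at the lowest to 0.716 at the highest, so changes of that size in either direction could not be told from 0 with 3 livers per genotype.

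Cebpa (ENSMUSG00000034957, chromosome 7), the most abundant of the factors, was at 174, 177 and 202 FPKM in control livers. It was at 193, 159 and 123 FPKM in mutant livers, so mutant liver a lay inside the control range and mutant livers b and c below it. The mutant mean was 85.7% of the control mean, and the log2 fold change was -0.24 (standard error 0.18, adjusted p = 0.507 from limma). Without mutant liver a the genotypes no longer overlapped, which is easier to reach with fewer livers. After median-ratio scaling the fold change was -0.428 (unadjusted p = 0.0566, adjusted p = 0.375). Its relative Cebpb, which takes part in the acute phase response and in regeneration, was at 112 to 151 FPKM in control livers and 93.4 to 120 FPKM in mutant livers, and the ratio of Cebpa to Cebpb overlapped between the genotypes.

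Prox1 (ENSMUSG00000010175, chromosome 1) was at 25.9, 19.1 and 16.9 FPKM in control livers and at 15.0, 18.9 and 19.7 FPKM in mutant livers. Only control liver a stood above the mutant range, and the log2 fold change was -0.19 (standard error 0.20, adjusted p = 0.620 from limma). Prox1os, an antisense transcript that shares 133 exon bases with Prox1, was at 2.76 to 5.59 FPKM in control and 3.07 to 4.6 FPKM in mutant livers. Because lymphatic endothelium also makes PROX1, the lymphatic markers were summed beside it, and they came to 13.8 to 36.5 FPKM in control livers and 29.0 to 50.2 FPKM in mutant livers, with none of the 7 symbols at 0 in all livers. The highest of these markers was Reln, which was also listed among the stellate cell markers. Reln was at 15.6, 28.6 and 5.13 FPKM in control livers and 28.2, 38.1 and 17.4 FPKM in mutant livers. The part of lymphatic cells in the level of Prox1 was not tested.

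Onecut1 (ENSMUSG00000043013, chromosome 9 from 74861921 to 74891781, plus strand) was the factor that differed most between livers of a genotype. In control livers it was at 2.80, 2.09 and 30.4 FPKM. In mutant livers it was at 23.5, 4.77 and 1.48 FPKM. The 2 high livers, control c and mutant a, belonged to different genotypes, and the highest value was 20.6 times the lowest. The SD within genotypes was 2.03 on the log2 scale, at the 98.3 percentile of all tested genes and the 99.5 percentile of the genes that averaged 5 FPKM or more. The log2 fold change of -0.03 therefore had a standard error of 1.23 (adjusted p = 0.992 from limma). It was 1.17 without control liver c and -1.06 without mutant liver a. The lincRNA Gm20649 lies on the same strand and shared 2171 of the 4113 exon bases of Onecut1, so fragments from those bases can be assigned to either gene. Gm20649 was at 0.91, 0.38 and 6.37 FPKM in control livers and 7.41, 2.23 and 0.53 FPKM in mutant livers, high in the same 2 livers as Onecut1.

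The 2 livers with high Onecut1 were also at one end of the range for the clock genes Arntl and Dbp, which were chosen after their values were seen. Arntl, which encodes the clock activator BMAL1, was at 2.18, 4.80 and 1.44 FPKM in control livers and 1.36, 2.92 and 7.41 FPKM in mutant livers, with the 2 lowest values in control liver c and mutant liver a. Dbp, a transcription factor gene that BMAL1 activates through E-boxes, was at 107, 33.7 and 126 FPKM in control livers and 124, 71.9 and 24.3 FPKM in mutant livers, with the 2 highest values in those livers. Only these 2 clock genes are shown, and the time of day of sampling was not given in the sources used here. Whether these levels bear on Onecut1 was not tested.

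**Figure D3:**
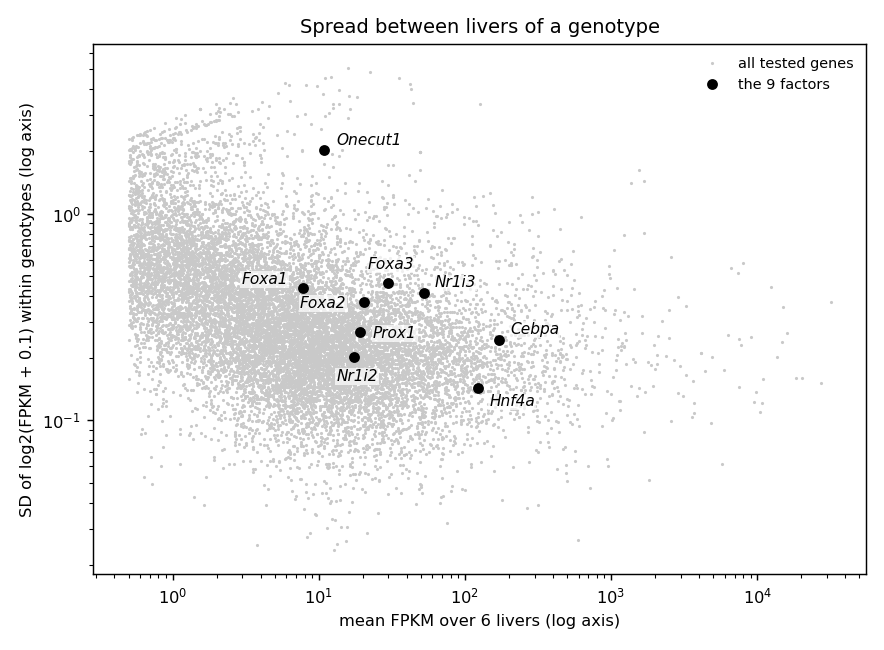
SD of log2(FPKM + 0.1) within genotypes (y axis, log scale) against the mean FPKM over 6 livers (x axis, log scale) for all 13943 tested genes (grey) and the 9 factors (black). Onecut1, with an SD of 2.03, lies above most genes of its level, while Hnf4a, with an SD of 0.143, lies in the lower part.

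The xenobiotic receptors differed from each other. Nr1i2 (ENSMUSG00000022809, chromosome 16), which encodes PXR, was at 15.4, 18.3 and 22.2 FPKM in control livers and at 17.6, 16.8 and 15.2 FPKM in mutant livers. The mutant range reached from just under to inside the control range, and the log2 fold change was -0.16 (standard error 0.17, adjusted p = 0.632 from limma). The genotypes no longer overlapped for Nr1i2 without control liver a, though fewer livers make this easier to reach. They also did not overlap for Nr1i2 and Prox1 after median-ratio scaling, where 10.3% of all genes were lower without overlap.

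Nr1i3 (ENSMUSG00000005677, chromosome 1 from 171213970 to 171220701, plus strand), which encodes CAR, had the lowest fold change of the 9 factors. In control livers a to c it was at 87.4, 45.5 and 78.8 FPKM. In mutant livers a to c it was at 28.2, 31.4 and 42.0 FPKM. Each mutant liver lay below each control liver, although mutant liver c at 42.0 FPKM was close to control liver b at 45.5 FPKM. The mutant mean was 48.0% of the control mean, and the log2 fold change was -1.02 (standard error 0.27, 95% interval -1.66 to -0.382, unadjusted p = 0.00672, adjusted p = 0.255 from limma). This unadjusted p ranked 352 among the 13943 genes. With each liver left out in turn the fold change ran from -1.31 to -0.842, and over all 16 alternatives the adjusted p ran from 0.0571, without control liver b, to 0.516.

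The annotation limits the reading of Nr1i3. Tomm40l, which encodes a mitochondrial import channel protein, lies on the opposite strand and shared 3304 of the 4414 exon bases of Nr1i3, or 74.9%. The libraries were directional, but the strand setting of the quantification was not given in the sources used here, so it is not known whether fragments of the 2 genes were kept apart. Tomm40l was at 10.2, 12.9 and 9.24 FPKM in control livers and 16.0, 14.9 and 11.5 FPKM in mutant livers, a log2 difference of 0.38 (unadjusted p = 0.0842 from limma), the opposite direction to Nr1i3.

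Ratios between 2 genes within a liver do not depend on how libraries are scaled to each other, so 13 ratios were compared by an exact two-sided permutation test, for which 3 livers against 3 allow no p under 0.1. The ratio of Nr1i3 to Hnf4a was 0.779, 0.382 and 0.546 in control livers and 0.240, 0.263 and 0.327 in mutant livers. It was the only one of the 13 without overlap, lower by 0.991 on the log2 scale in mutant livers (exact permutation p = 0.1, adjusted p = 0.975 over the 13 ratios). The ratio of Nr1i3 to Nr1i2 was 5.69, 2.49 and 3.55 in control livers and 1.61, 1.87 and 2.77 in mutant livers, overlapping through control liver b and mutant liver c (exact permutation p = 0.2, adjusted p = 0.975). Ratios among the FOXA genes moved by -0.139 to 0.159 on the log2 scale and overlapped. The ratio of Foxa3 to Foxa2 was widest in mutant livers, at 1.59, 0.765 and 2.80, beside 1.84, 1.33 and 1.0 in control livers.

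**Figure D4:**
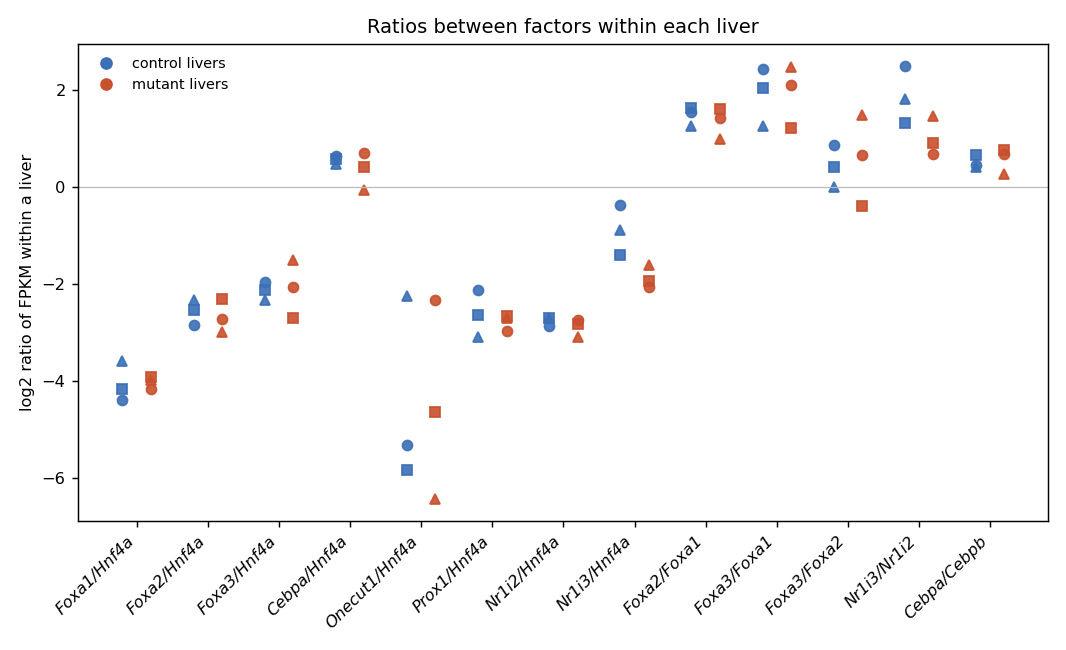
Log2 ratio of FPKM between 2 factors within each liver (y axis) for the 13 ratios, with control livers in blue and mutant livers in red and the liver letter as the symbol. Nr1i3/Hnf4a is the ratio whose genotypes do not overlap, and Onecut1/Hnf4a shows the widest scatter within each genotype.

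The levels of the genes that PXR and CAR are known to induce were set beside those of the receptors. Of 32 listed, 30 were tested, and 23 had a log2 fold change below 0, beside 29.7% of all genes, with a median of -0.497. At an unadjusted p under 0.05, 9 were lower and none was higher, beside 3.02% of all genes lower, and 5 were lower without overlap, beside 4.34%. None passed an adjusted p of 0.05. With a liver left out the median ran from -0.679 to -0.244, the weakest without control liver a, and it was -0.318 without mutant liver c. After median-ratio scaling the median was -0.655, with 24 below 0, beside 49.4% of all genes. At an unadjusted p under 0.05, 12 were then lower, beside 7.39% of all genes. Cyp3a25, a cytochrome P450 of the CYP3A family, was at 163, 131 and 187 FPKM in control livers and 64.7, 78.4 and 96.4 FPKM in mutant livers, without overlap (log2 fold change -1.01, standard error 0.20, adjusted p = 0.245 from limma). Cyp2c37 was at 35.9, 4.73 and 17.8 FPKM in control livers and 2.45, 1.06 and 3.43 FPKM in mutant livers, with control liver b again the lowest of the controls as it was for Nr1i3. The carboxylesterase gene Ces2a was at 40.6 to 56.7 FPKM in control livers and 25.9 to 29.6 FPKM in mutant livers. Cyp3a11, the standard readout of PXR in mouse liver, was at 294, 88.8 and 121 FPKM in control livers and 29.2, 41.4 and 105 FPKM in mutant livers, overlapping through mutant liver c (log2 fold change -1.54, standard error 0.57, adjusted p = 0.284). Cyp2b10, the standard readout of CAR, was low and scattered in both, at 8.22, 9.16 and 0.15 FPKM in control livers and 4.17, 0.67 and 1.23 FPKM in mutant livers. Members of the mouse P450 families share long stretches of sequence, so their fragments can be split between paralogs.

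Genes known to be controlled by the other factors were listed in the same way. Of all genes, 29.7% had a fold change below 0, and at an unadjusted p under 0.05, 3.02% were lower and 13.2% higher. After median-ratio scaling these shares were 49.4%, 7.39% and 6.31%. Of 19 tested HNF4A targets, 15 had a fold change below 0, with a median of -0.325. At an unadjusted p under 0.05, 5 were lower and 1 was higher. Without control liver c the median was -0.16. After median-ratio scaling it was -0.511, with 16 below 0 and 7 lower and 1 higher at that threshold. Apoa2, which encodes an apolipoprotein of high-density lipoprotein, was at 11916 to 13639 FPKM in control livers and 7820 to 9083 FPKM in mutant livers. Slc10a1, the main bile salt uptake transporter of hepatocytes, was at 375, 181 and 333 FPKM in control livers and 178, 144 and 128 FPKM in mutant livers. Cdh1, which encodes E-cadherin, went the other way, at 22 to 39.3 FPKM in control livers and 42.7 to 54.6 FPKM in mutant livers. All 3 had an adjusted p of 0.255 to 0.256 from limma.

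Of 14 tested C/EBPA targets, 10 were below 0, beside 29.7% of all genes, with a median of -0.371. At an unadjusted p under 0.05, 4 were lower and none higher, beside 3.02% and 13.2% of all genes. The median was -0.16 without mutant liver c. After median-ratio scaling it was -0.556, with 11 below 0 and 6 lower, beside 49.4% and 7.39% of all genes. The C/EBPA targets included the urea cycle gene Ass1, at 1789 to 2438 FPKM in control and 908 to 1491 FPKM in mutant livers. They also included Otc, of the same cycle, at 219 to 361 FPKM in control and 181 to 195 FPKM in mutant livers. Agt, the angiotensinogen gene, was at 266 to 369 FPKM in control livers and 235 to 241 FPKM in mutant livers. Of 16 tested targets of FOXA or ONECUT1, 13 were below 0 with a median of -0.243, and 2 were lower and 1 higher at that threshold. After median-ratio scaling the median was -0.428, and 13 were again below 0. At that threshold 8 were then lower, beside 7.39% of all genes, and 1 was higher, beside 6.31%. The coagulation factor gene F9 was at 87.8 to 113 FPKM in control and 72.9 to 77.9 FPKM in mutant livers, and Igfbp1, a FOXA target that insulin represses, was at 42.8, 73.7 and 23.8 FPKM in control and 73.1, 82.0 and 119 FPKM in mutant livers. These lists share genes with each other and with the hepatocyte markers, and for each the median lay below the 0.185 of all tested genes.

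Other factors of the liver network were counted from a separate list. Of 26 tested, 13 had a fold change above 0 and 13 below, with a median of 0.017. Only Atf5 was at an unadjusted p under 0.05, beside 16.2% of all genes. That balance depended on the scaling, since after median-ratio scaling 21 of the 26 were below 0, with a median of -0.168. At that threshold 3 were then lower and 1 higher, beside 7.39% and 6.31% of all genes. Atf5, a stress-responsive factor with high expression in liver, was at 178, 315 and 139 FPKM in control livers and 318, 427 and 476 FPKM in mutant livers (log2 fold change 1.02, standard error 0.31, adjusted p = 0.255 from limma). Klf15, a regulator of amino acid and glucose metabolism, was at 50.6 to 54.3 FPKM in control and 35.1 to 48.5 FPKM in mutant livers, without overlap (adjusted p = 0.323). Gata4, an endoderm factor, was at 4.19 to 5.03 FPKM in control and 4.79 to 7.31 FPKM in mutant livers. Nr0b2, which encodes the corepressor SHP, was at 5.08, 19 and 10.4 FPKM in control and 15.0, 13.7 and 34.7 FPKM in mutant livers, and Nr1h4, which encodes the bile acid receptor FXR, was at 129, 55.0 and 70.8 FPKM and at 69.8, 52.8 and 64.5 FPKM. Of 13 partners and coregulators, none was at an unadjusted p under 0.05, and the median was 0.022, whereas after median-ratio scaling 12 were below 0, with a median of -0.163, and 1 was lower at that threshold. Crebbp, a histone acetyltransferase gene, was at 3.56 to 8.43 FPKM in control and 6.28 to 9.43 FPKM in mutant livers. Rxra, which encodes the shared partner of PXR and CAR, was at 85.9 to 99.3 FPKM in control livers and 72.7 to 87.7 FPKM in mutant livers.

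**Figure D5:**
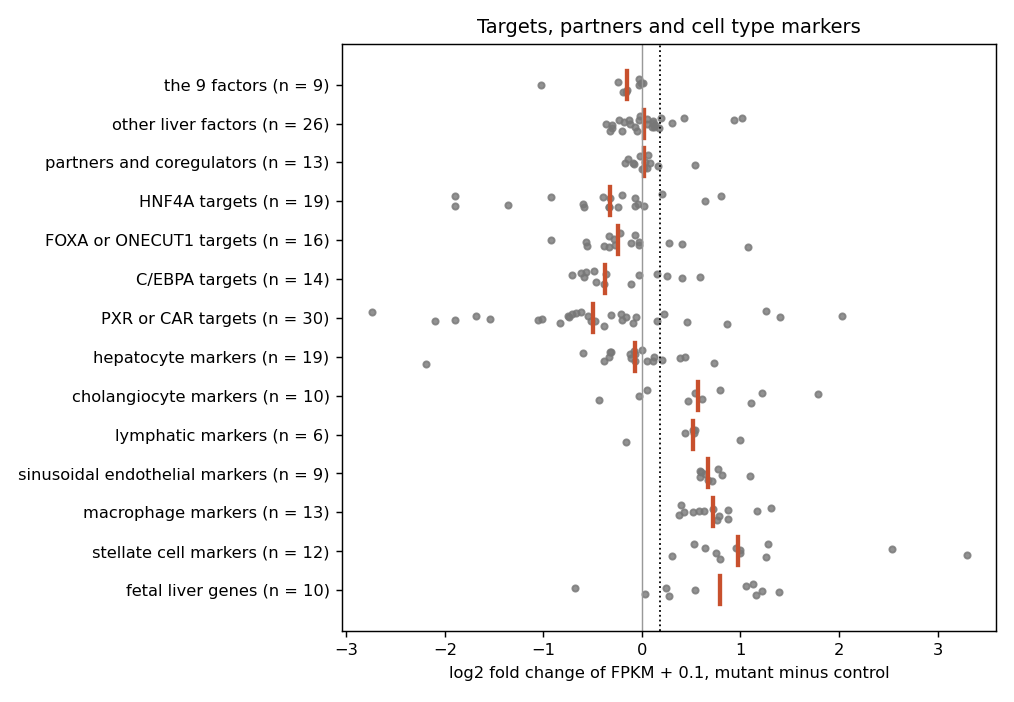
Log2 fold change, mutant minus control, of each tested gene (grey points) in the lists of factors, targets, partners and cell type markers, with the list median in red, 0 as a solid line and the median of all tested genes, 0.185, as a dotted line. Of the lists drawn, the PXR or CAR targets have the lowest median, -0.497, and the stellate cell markers the highest, 0.974.

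Hepatocyte markers were abundant in every liver, and markers of other cells mostly had fold changes above 0, though none passed an adjusted p of 0.05. Of all genes, 29.7% were below 0, and at an unadjusted p under 0.05, 3.02% were lower and 13.2% higher. Without overlap, 4.34% of all genes were lower and 18.7% higher. The 19 tested hepatocyte markers had a median log2 fold change of -0.075 with 11 below 0. At that threshold 3 were lower and 1 higher, with 4 lower and 2 higher without overlap. After median-ratio scaling the median was -0.26, with 15 below 0 and 5 lower and 1 higher. The shares of all genes were then 49.4% below 0, 7.39% lower and 6.31% higher. Alb, the albumin gene, was at 25514 to 46354 FPKM in control livers and 24361 to 33815 FPKM in mutant livers. Ttr, the transthyretin gene, was at 5577 to 7466 FPKM and 4842 to 5718 FPKM, Apob at 929 to 1019 FPKM and 902 to 962 FPKM, and Cps1, the first enzyme of the urea cycle, at 592 to 716 FPKM and 360 to 707 FPKM, all overlapping. Afp, the fetal counterpart of albumin, was at 1.19 to 6.92 FPKM in control livers and 2.95 to 5.28 FPKM in mutant livers. Cyp2e1, the P450 that activates CCl4, was at 848 to 3364 FPKM in control livers and 292 to 570 FPKM in mutant livers. The sinusoidal endothelial markers summed to 54.1 to 88.2 FPKM in control livers and 89.8 to 130 FPKM in mutant livers. Of their fold changes, 9 of 9 were above 0 and 6 were at an unadjusted p under 0.05. The fetal liver genes summed to 351 to 799 FPKM in control livers and 1007 to 1610 FPKM in mutant livers. Of 10 tested, 9 had fold changes above 0. The keratin genes Krt8 and Krt18 together made up most of the fetal liver sum in each liver. Krt18 was at 128 to 293 FPKM in control livers and 318 to 517 FPKM in mutant livers. The log2 fold change was 1.16 for Krt8 and 1.13 for Krt18. In the study's qPCR, keratin 18 served as a hepatocyte marker, so this sum is not specific to a fetal state. The sums overlapped for the macrophage markers, at 266 to 496 FPKM and 436 to 923 FPKM with 13 of 13 above 0, and for the stellate cell markers, at 79.5 to 362 FPKM and 209 to 476 FPKM with 12 of 12 above 0. Cholangiocytes also express FOXA1, FOXA2 and ONECUT1, and the cholangiocyte markers summed to 89.9 to 231 FPKM in control livers and 200 to 458 FPKM in mutant livers, with 8 of 10 tested above 0. Spp1 made up most of that sum in each liver, at 73.2 to 198 FPKM in control livers and 162 to 423 FPKM in mutant livers. After median-ratio scaling the medians were 0.491 for the sinusoidal, 0.541 for the macrophage and 0.79 for the stellate cell markers. They were 0.395 for the cholangiocyte markers, with 3 below 0, and 0.614 for the fetal liver genes, with 2 below 0. At an unadjusted p under 0.05, 4, 1, 3, 1 and 2 genes were then higher, in that order, beside 6.31% of all genes. As deposited these counts were 6, 3, 3, 2 and 4. The medians as deposited also moved when single livers were left out. Without control liver c they were 0.365 for the stellate cell markers, against 0.974 with all livers, 0.442 for the fetal liver genes, against 0.796, and 0.293 for the cholangiocyte markers, against 0.572. Without control liver b that of the stellate cell markers was 1.57, without mutant liver b that of the macrophage markers was 0.402, against 0.725, and without control liver a that of the cholangiocyte markers was 0.917. The 10 cell cycle genes had a median of 1.052, which was 0.564 without control liver c and 1.69 without control liver a. Only 3 of 10 lymphocyte markers could be tested, and they did not move together. Their median was 0.618, with 2 fold changes above 0 and 1, that of Cd4, below. Without mutant liver b the median was -0.004. Ptprc, the highest of the 3, was at 2.21 to 4.39 FPKM in control livers and 3.72 to 6.43 FPKM in mutant livers. Cd4 was at 0.84 to 1.73 FPKM in control livers and 0.37 to 0.65 FPKM in mutant livers. None of the marker lists had a gene at 0 in all livers, and the part of other cells in the levels of the 9 factors was not tested.

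Finally, the genes whose pattern over the 6 livers was most like that of Hnf4a were sought among 7912 genes that averaged 5 FPKM or more. The closest 5 by Pearson correlation of log2(FPKM + 0.1) were mt-Nd2 (0.996), mt-Co2 (0.988), Cyp7b1 (0.980), mt-Cytb (0.978) and Rrs1 (0.970), of which 3 are encoded in mitochondrial DNA. Rank correlations (Spearman) of these genes with Hnf4a were lower, at 0.771 to 0.943. Control liver c was the highest for all 5, as it was for Hnf4a, and without it the Pearson correlations over the other 5 livers were 0.911 to 0.991. Since the genes were chosen for their correlation over these same livers, those values are no separate check. Among the factors, Foxa1 was the most like Hnf4a, at 0.966 over the 6 livers and 0.876 without control liver c. Both values of each point come from 1 library, and these correlations are descriptions only.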

How the data were processed

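RNA-seq of liver from 3 control and 3 mutant mice after the high-fat diet and CCl4 provided the data. Per the study's methods, the authors prepared directional libraries of polyadenylated RNA, aligned paired reads to GRCm38 with STAR 2.7.8a and deposited gene-level FPKM computed by RSEM 1.3.3. The submitters' processing notes also name cutadapt 2.3, FastQC 0.11.8 and MultiQC 1.7. No counts were used, and the sources state no scaling beyond FPKM. Depth was 9.14 to 18.1 M fragments per library, read from steps of low FPKM values, of which 86.2% to 89.3% were whole fragments within a tolerance of 0.15. Values near 1 fragment are coarse, and none of the 9 factors is near that level. Other effects of depth were not tested, since depth and genotype cannot be told apart.

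For the 13943 genes that averaged 0.5 FPKM or more, log2(FPKM + 0.1) was tested with limma 3.58.1 (lmFit, eBayes with a trend) in R 4.3.3, with Benjamini-Hochberg adjustment over all of them and a threshold of 0.05. The script was tested on simulated data. Within-liver ratios were compared by exact permutation tests. Gene positions came from GENCODE M21 on GRCm38 and promoter windows from RefSeq on GRCm38.p6, in which all 9 factors matched by symbol. Alternatives were other pseudocounts, filters, scalings and variance models, the replicate letter as a block, and each liver left out in turn. The 9 factors, the gene lists and the tests were chosen with earlier results of these data known. All 9 factors are reported, and 1 gene that the rule names is not reported here. Other genes were named by rule: fixed network genes and readouts, those with the smallest p or highest level of a list, those most like Hnf4a, and genes overlapping a factor. Arntl, Dbp, Tomm40l and Gm20649 were added after values were seen, as was Cyp2e1, which the rule also names.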

Additional observations from a re-analysis of the deposited data

How the results depend on the processing

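In all 16 alternatives, 0 of the 9 factors passed an adjusted p of 0.05 and 1, Nr1i3, was at an unadjusted p under 0.05. Of all genes, 16.2% were at an unadjusted p under 0.05 in the main fit and 13.7% after median-ratio scaling. That share was not computed for the other alternatives. The fold changes of Nr1i3, Cebpa, Prox1 and Nr1i2 were below 0 in each of the 16 alternatives. Changes near 0 turned direction. After median-ratio scaling Foxa3 was at -0.175, and after quantile normalization at -0.134. With array weights Hnf4a was at 0.041, Foxa1 at 0.251, Foxa2 at 0.125, Foxa3 at -0.101 and Onecut1 at 0.673. With each liver left out in turn, the log2 fold change ran from -0.11 to 0.073 for Hnf4a, -0.255 to 0.322 for Foxa1, -0.36 to 0.076 for Foxa2, -0.32 to 0.331 for Foxa3 and -1.061 to 1.169 for Onecut1. The number of factors whose genotypes did not overlap was 3 after median-ratio scaling, all lower, beside 10.3% of all genes lower. It was 1 to 2 with a liver left out, being 2 without control liver a or mutant liver a. The share of all genes without overlap was not computed with a liver left out. The number of within-liver ratios without overlap was 1 to 3 with a liver left out, being 3 without control liver c or mutant liver c and 2 without control liver a, control liver b or mutant liver a. With fewer livers, non-overlap is easier to reach by construction. Deviations from the genotype mean correlated at -0.019, 0.055 and 0.016 between livers of the same letter, a, b and c. Between livers of different letters the correlations were -0.055 to 0.038. These values cannot show whether livers shared a litter or a batch. With the letter as a block Nr1i3 was at -1.02 (adjusted p = 0.253 from limma), with 0 factors called. What the lower depth of the mutant libraries, 9.14 to 9.42 M fragments, adds to these results was not tested, since depth and genotype cannot be told apart. The 3 livers per genotype limit all of the results.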
